A study of Mus musculus with 16 samples.

Results

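Matricellular and adhesive glycoproteins are secreted proteins that sit in or on the extracellular matrix and connect it to cell surface receptors. Their genes were followed here across mouse livers with and without carbon tetrachloride injury and with and without the Lcn2 gene. The set held 10 genes taken by name: Postn, Tnc, Sparc, Fn1, Vtn, Ecm1, Vcan, Ctgf, Cyr61 and Fstl1. All 10 were on the array, and 9 of them passed the filter on dim probes and were among the 24357 genes tested. Tnc did not pass. Members were taken by symbol, and the set was proposed with earlier results of these data known.

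Adhesive glycoproteins such as fibronectin (Fn1) and vitronectin (Vtn) bind integrins and hold cells to the matrix, and the liver secretes large amounts of both into the blood. Matricellular proteins such as periostin (Postn), tenascin C (Tnc) and SPARC add little to the strength of the matrix, but they change how cells attach, migrate and respond to growth factors. Many of them are low in the healthy adult liver and are known to rise during scarring, when hepatic stellate cells and portal fibroblasts become matrix-producing myofibroblasts.

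Whole liver RNA was measured on Agilent 1-colour arrays, with 1 array per animal, in a study of lipocalin 2, the secreted protein that Lcn2 encodes, and liver fibrosis. All animals were male BALB/c mice on regular chow. Their age, 6 to 8 weeks, is given in the study's methods for the start of treatment. There were 4 wild type (WT) and 3 Lcn2-/- control mice, which received corn oil, and 5 WT and 4 Lcn2-/- mice given CCl4 in corn oil by intraperitoneal injection at 0.5 ml/kg, 2 times per week for 4 weeks. Livers were collected 48 h after the last dose. CCl4 is a solvent that hepatocytes turn into a toxic radical, so that repeated doses scar the liver. Per the study's methods, the Lcn2-/- line was made on a mixed B6.129 background and backcrossed to BALB/c, and no tissue-specific driver of the deletion is named, so the cells in which the loss acts cannot be singled out. Whole liver mixes many cell types, and fewer cells of a type cannot be told apart from less RNA per cell.

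Between 51.59% and 60.92% of the gene spots on an array were well above background, and no spot was saturated (0 on each of the 16 arrays). Lcn2 itself ranged from 13.79 to 17.57 in WT livers and from 10.47 to 12.25 in Lcn2-/- livers on the log2 scale, so no array went against its genotype label. Hepatocyte genes (Alb, Apoa1, Ttr, Tat, Serpina1a, Apob and Fgb) were well above background on every array, as a liver label requires. The arrays lay on 2 slides. Slide 1 held every control array and WT CCl4 replicate 1, and slide 2 held the other 8 CCl4 arrays, so the treatment can be separated from the slide only through WT CCl4 replicate 1. WT arrays other than WT CCl4 replicate 1 lay in the upper row of a slide, and that array and all Lcn2-/- arrays lay in the lower row, so genotype and slide row cannot be told apart beyond that 1 array. WT control replicate 3 and Lcn2-/- control replicate 3 lay nearest to the CCl4 arrays among the controls, and calls that changed without them are given.

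The upstream sequences of 5 of the genes are shown first because their transcripts moved differently: Postn, Sparc and Fstl1 were higher after CCl4 in both genotypes, Ecm1 was lower in both, and Cyr61 was called in neither. Each is the 250 bases before a transcription start from RefSeq (build GRCm38.p6), 5′ to 3′ on the gene's strand, with searched motifs in capitals. RefSeq promoter entries matched 8 of the 10 genes, and none was held here for Fn1 or Ctgf. Postn has 2 listed starts, and the one shown holds a TATAAA.
Postn, chr3:54360857-54361106, plus strand: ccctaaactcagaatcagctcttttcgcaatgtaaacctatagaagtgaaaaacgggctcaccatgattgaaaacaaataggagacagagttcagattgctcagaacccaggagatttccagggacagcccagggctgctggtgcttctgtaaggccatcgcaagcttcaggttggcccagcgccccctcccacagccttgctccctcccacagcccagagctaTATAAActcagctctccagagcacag
Sparc, chr11:55420081-55420330, minus strand: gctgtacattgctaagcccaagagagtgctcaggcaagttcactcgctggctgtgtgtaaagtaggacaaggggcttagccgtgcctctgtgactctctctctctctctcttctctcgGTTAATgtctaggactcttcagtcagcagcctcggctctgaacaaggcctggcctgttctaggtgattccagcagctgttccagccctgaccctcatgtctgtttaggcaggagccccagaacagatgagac
Fstl1, chr16:37776805-37777054, plus strand: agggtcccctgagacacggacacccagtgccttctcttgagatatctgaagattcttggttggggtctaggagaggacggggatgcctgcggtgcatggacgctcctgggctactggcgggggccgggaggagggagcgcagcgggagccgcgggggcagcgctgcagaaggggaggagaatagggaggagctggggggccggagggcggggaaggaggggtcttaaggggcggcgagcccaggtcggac
Ecm1, chr3:95739570-95739819, minus strand: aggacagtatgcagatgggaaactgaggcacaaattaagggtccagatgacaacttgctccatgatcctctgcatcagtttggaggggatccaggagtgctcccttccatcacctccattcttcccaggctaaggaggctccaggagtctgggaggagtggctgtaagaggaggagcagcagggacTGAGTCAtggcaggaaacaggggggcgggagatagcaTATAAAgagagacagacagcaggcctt
Cyr61, chr3:145649986-145650235, minus strand: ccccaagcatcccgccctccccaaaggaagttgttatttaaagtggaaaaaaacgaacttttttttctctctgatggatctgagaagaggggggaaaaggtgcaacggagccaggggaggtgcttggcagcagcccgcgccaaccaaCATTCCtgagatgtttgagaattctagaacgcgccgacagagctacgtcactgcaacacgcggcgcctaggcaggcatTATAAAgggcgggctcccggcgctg

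The search took 6 motifs on both strands of these windows: TATAAA (the TATA box), CCAAT (bound by NF-Y), the motif GGAATG (bound by the TEAD partners of YAP), TGACTCA (bound by AP-1), the CArG box (bound by SRF) and GTTAAT (part of the HNF1 site). TATAAA began 26 bases before the shown Postn start, 27 before the Ecm1 start and 25 before the Cyr61 start, and 12.4% of all 32851 promoter windows hold it. The Ecm1 window has TGACTCA on the reverse strand 64 bases before the start (4.46% of windows). The Cyr61 window has GGAATG on the reverse strand 103 bases before the start (12.6%). Sparc has GTTAAT 132 bases before its start (6.43%), and the Fstl1 window holds none of the 6 motifs. The CArG box was found in 0 of the 10 listed windows of these genes and in 1.47% of all windows, while CCAAT, held by 33.8%, was found only in the Vcan window among them. These are matches of letters and not sites shown to be bound.

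The first question was how the genes respond to CCl4. In WT livers 4 of the 9 tested genes were called higher, namely Postn, Sparc, Fstl1 and Ctgf, and 2 were called lower, Ecm1 and Vcan (limma, adjusted p under 0.05). Vcan was lower on its brightest probe alone, and its sign turned when its probes were averaged. Over all genes tested, 8.01% were called higher and 8.8% lower. With slide as a block, the WT calls of Ctgf, Ecm1 and Vcan were lost, which left 3 of 6. In Lcn2-/- livers 3 of the 9 were called higher, Postn, Sparc and Fstl1, and 1 was called lower, Ecm1, against 6.57% and 5.61% of all genes, and the block left 2 of these 4, Postn and Fstl1. The median difference of the 9 genes was 0.14 in each genotype, beside -0.03 and -0.02 over all genes. The remaining genes, Fn1, Vtn and Cyr61, were called in neither genotype, and their values are given below. All levels are log2 of the quantile-normalized signal and are compared for 1 probe between groups, never between probes.

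**Figure D1:**
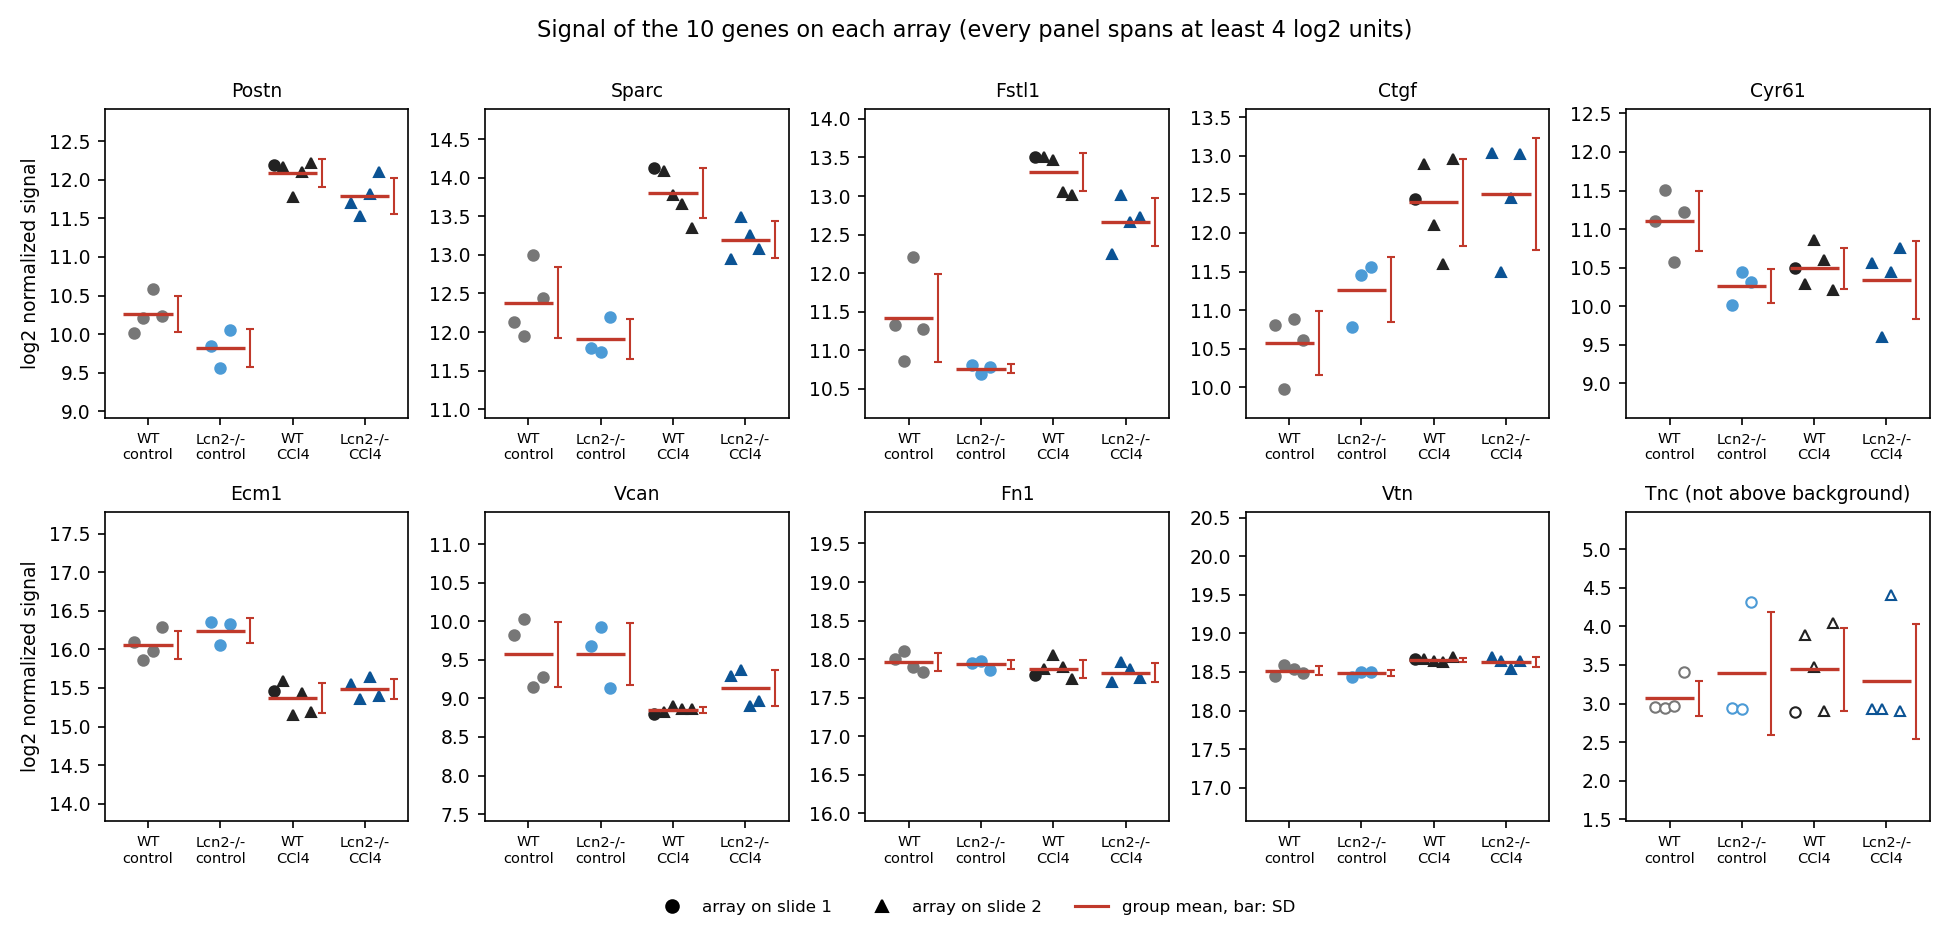
Log2 normalized signal (vertical axis) of each of the 10 genes in the 4 groups (horizontal axis), 1 point per array, circles for slide 1 and triangles for slide 2, with group means (red lines) and SD (red bars). All CCl4 arrays lie above all control arrays for Postn and Fstl1, and within each genotype for Sparc, and below them for Ecm1, whereas Fn1 and Vtn stay within a narrow band and the open Tnc points are not well above background.

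Periostin is a secreted ligand of αv integrins that aids collagen cross-linking. Postn was 10.01, 10.21, 10.58 and 10.23 in the WT controls and 12.19, 12.16, 11.77, 12.11 and 12.22 in WT CCl4 livers (replicates in order). In Lcn2-/- mice it was 9.85, 9.56 and 10.05 in controls and 11.70, 11.54, 11.82 and 12.10 after CCl4. The lowest CCl4 array of either genotype was thus above the highest control array. Of all genes, 8.03% were without overlap and higher after CCl4 in WT, and 9.42% lower. In Lcn2-/- livers these shares were 12.1% and 12.7%. The difference was 1.83 (SE 0.152, 3.56-fold, adjusted p = 4.26e-06) in WT and 1.97 (SE 0.173, 3.92-fold, adjusted p = 1.12e-05) in Lcn2-/-, and Postn stayed called in all 28 alternative analyses of each response. Its difference ranged from 1.75 to 1.94 in WT and from 1.82 to 2.09 in Lcn2-/- over these. On slide 1 alone, WT CCl4 replicate 1 was 1.93 above the mean of the WT controls. The WT estimate with slide as a block was the same 1.93 and is not a separate result.

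SPARC binds collagen and slows cell attachment. The Sparc probe used here (A_55_P2046807) read 12.13, 11.96, 12.999 and 12.44 in WT controls and 14.13, 14.09, 13.78, 13.67 and 13.35 in WT CCl4 livers. In Lcn2-/- livers it read 11.79, 11.74 and 12.20 in controls and 12.95, 13.50, 13.26 and 13.08 after CCl4. Neither pair of groups overlapped. The difference was 1.42 (SE 0.216, 2.67-fold, adjusted p = 0.000447) in WT and 1.29 (SE 0.246, 2.45-fold, adjusted p = 0.00349) in Lcn2-/-. With slide as a block the Lcn2-/- difference was 1.70 with adjusted p = 0.067 and was no longer called. A brighter Sparc probe (A_55_P2046812) had been set aside because the image software marked its spot as an outlier on 1 array, WT control replicate 4. With marked spots kept, which was chosen after this was seen, that probe differed by 1.33 (SE 0.275) in WT and by 1.37 (SE 0.313) in Lcn2-/-, and Sparc was called in both genotypes.

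Follistatin-like 1 is a secreted SPARC family glycoprotein that binds BMP and TGF-β ligands. Fstl1 was 11.33, 10.86, 12.22 and 11.28 in WT controls and 13.50, 13.51, 13.47, 13.06 and 13.02 in WT CCl4 livers. The Lcn2-/- controls read 10.81, 10.69 and 10.78 and the Lcn2-/- CCl4 livers 12.25, 13.02, 12.67 and 12.72. WT control replicate 3 was the highest control but still lay below every CCl4 array. The difference was 1.89 (SE 0.230, 3.70-fold, adjusted p = 7.81e-05) in WT and 1.90 (SE 0.262, 3.74-fold, adjusted p = 0.000358) in Lcn2-/-, and it was called in all 28 alternatives of both. Within slide 1, WT CCl4 replicate 1 exceeded the mean of the WT controls by 2.08, which is also the WT estimate with slide as a block.

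Ctgf and Cyr61 encode CCN family proteins, which bind integrins and heparan sulfate, and both are classic targets of the YAP and TEAD transcription factors. The 2 genes did not move together. Ctgf was 10.81, 9.98, 10.89 and 10.61 in WT controls and 12.44, 12.89, 12.10, 11.60 and 12.96 in WT CCl4 livers, with no overlap. In Lcn2-/- livers it was 10.79, 11.45 and 11.57 in controls and 13.04, 11.50, 12.46 and 13.03 after CCl4, where CCl4 replicate 2 lay below the highest control. The difference was 1.82 (SE 0.350, 95% CI 1.07 to 2.57, adjusted p = 0.00251) in WT and 1.24 (SE 0.399, 95% CI 0.38 to 2.09, adjusted p = 0.0578) in Lcn2-/-. The Lcn2-/- difference was called in 4 of 28 alternatives, among them at 1.57 (adjusted p = 0.0132) without Lcn2-/- CCl4 replicate 2 and at 1.24 (adjusted p = 0.0481) without WT CCl4 replicate 4, and with slide as a block the WT difference was 1.86 (adjusted p = 0.0973). The interaction, which subtracts the WT response from the Lcn2-/- response, was -0.59 (95% CI -1.72 to 0.55), so that a difference in Ctgf response between genotypes was not shown. It was -0.25 without Lcn2-/- CCl4 replicate 2, -0.39 without WT control replicate 2 and -0.10 with array weights.

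Cyr61 was 11.10, 11.51, 10.58 and 11.22 in WT controls and 10.499, 10.29, 10.87, 10.60 and 10.21 in WT CCl4 livers. The Lcn2-/- livers read 10.02, 10.45 and 10.31 in controls and 10.56, 9.60, 10.44 and 10.75 after CCl4. WT control replicate 3 was the only WT control inside the range of the WT CCl4 livers, and all Lcn2-/- controls lay within the range of the Lcn2-/- CCl4 livers. The WT difference was -0.61 (95% CI -1.12 to -0.11, adjusted p = 0.0912) and the Lcn2-/- difference 0.08 (95% CI -0.49 to 0.65, adjusted p = 0.881). The WT difference was called in 4 of 28 alternatives, among them at -0.79 (adjusted p = 0.0302) without WT control replicate 3 and at -0.61 (adjusted p = 0.0385) without Lcn2-/- CCl4 replicate 2. The interaction was 0.69 (95% CI -0.07 to 1.46, adjusted p = 1.0).

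Extracellular matrix protein 1 is a secreted glycoprotein of hepatocytes that is known to hold TGF-β in its latent form. Ecm1 was 16.09, 15.87, 15.97 and 16.29 in WT controls and 15.47, 15.60, 15.15, 15.43 and 15.19 in WT CCl4 livers. In Lcn2-/- livers it was 16.35, 16.06 and 16.33 in controls and 15.56, 15.36, 15.64 and 15.39 after CCl4. All 9 CCl4 arrays lay below all 7 control arrays. Ecm1 fell by 0.69 (SE 0.125, adjusted p = 0.0016) in WT and by 0.76 (SE 0.142, adjusted p = 0.00307) in Lcn2-/- on the log2 scale. With slide as a block the differences were -0.59 (adjusted p = 0.132) and -0.63 (adjusted p = 0.249). Ecm1 was called in 26 of 28 alternatives in each genotype. A second, dimmer Ecm1 probe (A_66_P104815) had the same sign, with differences of -0.54 (SE 0.406) and -0.33 (SE 0.462), but did not pass the test in either genotype.

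**Figure D2:**
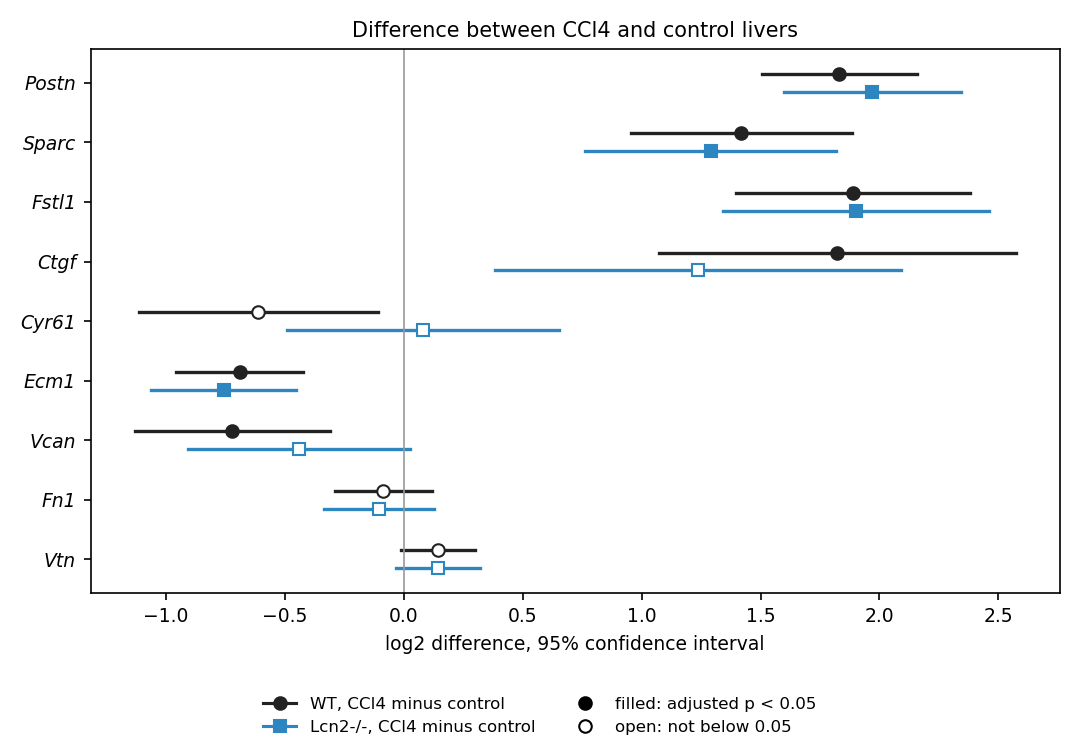
Log2 difference between CCl4 and control livers (horizontal axis) with 95% confidence intervals for the 9 tested genes (vertical axis), in WT (black circles) and Lcn2-/- (blue squares), filled where the adjusted p was under 0.05. Intervals of the 2 genotypes overlap for every gene, and Ctgf and Vcan are filled in WT alone.

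Versican (Vcan) is a large proteoglycan that binds hyaluronan, and its probes disagreed. The brightest probe (A_55_P1960208, chr13:89851810-89851869, mm9, minus strand), which the files assign to transcript NM_172955, is the one the counts above rest on. Its sequence is shown because it decides the direction of the call.
Vcan, A_55_P1960208: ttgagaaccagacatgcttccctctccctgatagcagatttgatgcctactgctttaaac
On this probe Vcan was 9.83, 10.03, 9.15 and 9.28 in WT controls and 8.80, 8.82, 8.90, 8.86 and 8.86 in WT CCl4 livers. The Lcn2-/- livers read 9.67, 9.92 and 9.14 in controls and 9.30, 9.37, 8.91 and 8.97 after CCl4, and these overlapped. The difference was -0.72 (SE 0.192, adjusted p = 0.0189) in WT and -0.44 (SE 0.218, adjusted p = 0.211) in Lcn2-/-. The WT call was lost without WT control replicate 1 (-0.64, adjusted p = 0.0733) and without WT control replicate 2 (-0.57, adjusted p = 0.0740), and with slide as a block it was -0.77 (adjusted p = 0.205).

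A second Vcan probe (A_55_P1960202, chr13:89795080-89795139, mm9), which the files assign to transcript NM_001081249, went the other way. It was well above background on 1 of 4 WT control, 0 of 3 Lcn2-/- control, 5 of 5 WT CCl4 and 3 of 4 Lcn2-/- CCl4 arrays. Its signal was 3.24, 4.01, 6.66 and 4.17 in WT controls and 7.60, 8.10, 7.53, 7.75 and 7.45 in WT CCl4 livers. All WT CCl4 arrays were above all WT controls, but no fold is given, since the probe was detected in 1 of 4 of these controls. In Lcn2-/- livers it was 2.93, 2.92 and 3.34 in controls and 4.48, 6.99, 5.80 and 6.31 after CCl4. Since no Lcn2-/- control was above background, CCl4 gave a signal at least 1.3-fold higher there, against a floor set per array by the dimmest probe called above background. WT control replicate 3 was the sole control array on which this probe was detected. The remaining Vcan probe (A_52_P1044655) was well above background on 0 of 16 arrays. Averaging both probes that passed the filter turned the sign of the Vcan difference in both genotypes. That average rests in part on control arrays where the second probe was not detected. The size of the average is therefore listed only with the processing alternatives below and is not read as a fold. No direction is given for Vcan as a gene.

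**Figure D3:**
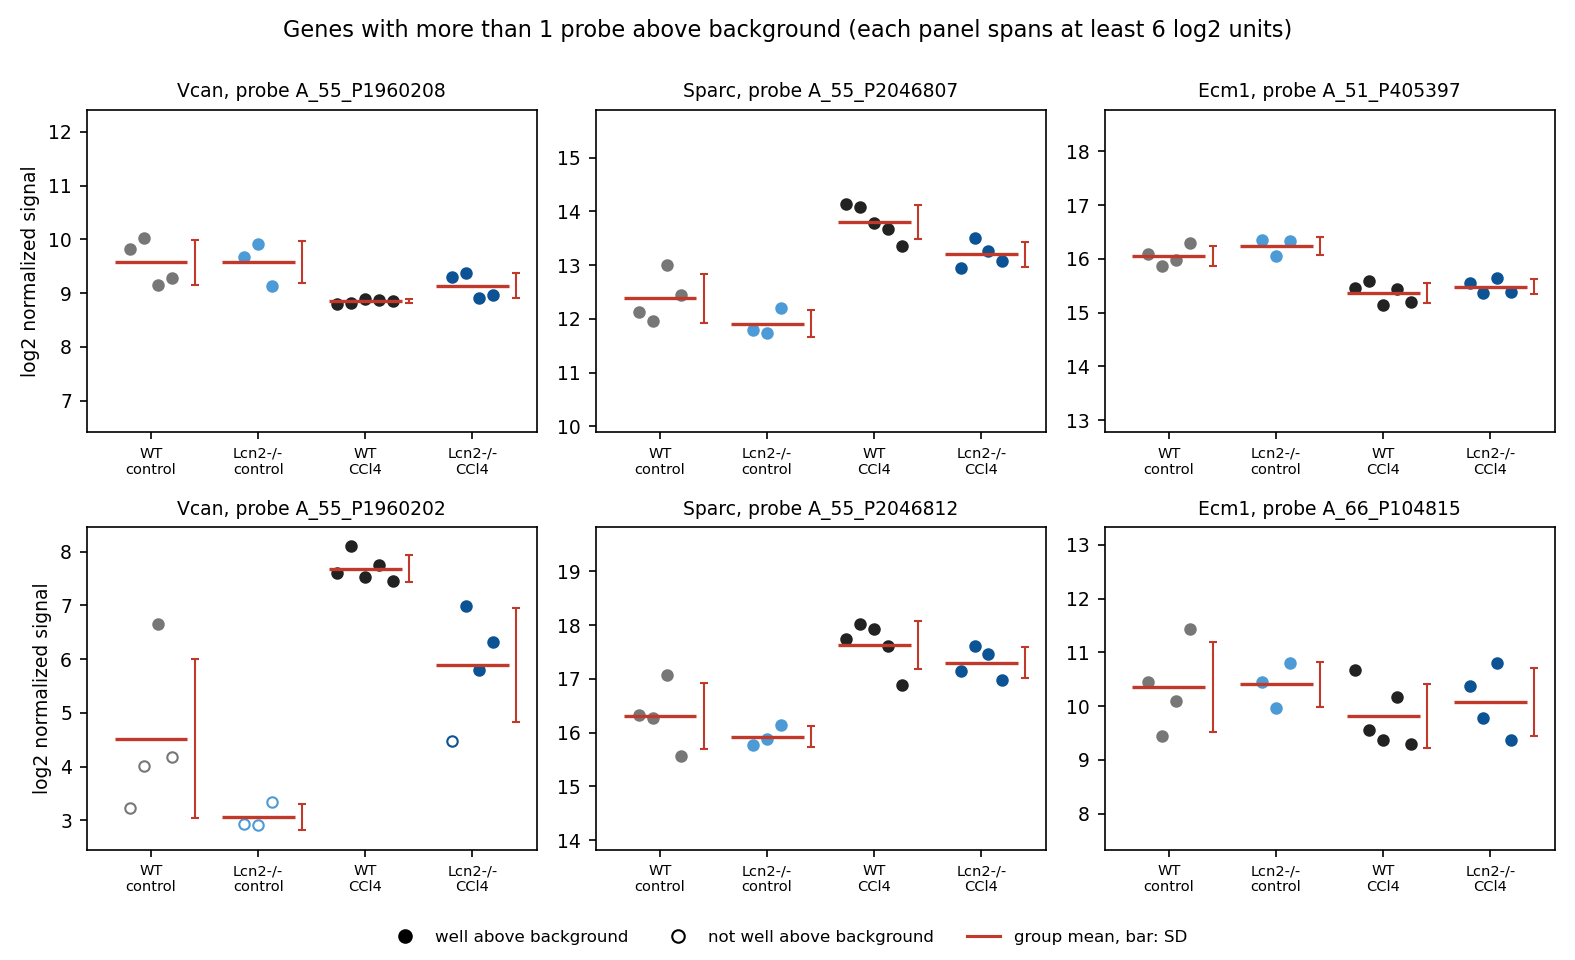
Log2 normalized signal (vertical axis) per array and group for genes with more than 1 probe above background, the probe used in the upper row and the other in the lower row, with group means and SD in red and open points for arrays on which the probe was not well above background. The Vcan probes move in opposite directions after CCl4, while the Sparc probes rise together and the second Ecm1 probe is more scattered.

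The adhesive plasma glycoproteins hardly varied. Fn1 ranged from 17.70 to 18.10 and Vtn from 18.44 to 18.70 over the 16 arrays. Fn1 averaged 17.96 ± 0.118 (SD, n = 4) in control and 17.88 ± 0.119 (n = 5) in CCl4-treated WT livers. In Lcn2-/- livers it averaged 17.93 ± 0.063 (n = 3) and 17.83 ± 0.119 (n = 4). The difference was -0.09 in WT (95% CI -0.29 to 0.12) and -0.10 in Lcn2-/- (95% CI -0.34 to 0.13). Vtn averaged 18.52 ± 0.060 and 18.66 ± 0.025 in WT and 18.48 ± 0.038 and 18.63 ± 0.067 in Lcn2-/- livers, control first. Every CCl4 array was above every control array of its genotype for Vtn, as for 8.03% of all genes in WT and 12.1% in Lcn2-/-. The Vtn difference was 0.14 in each genotype (adjusted p = 0.197 in WT and 0.285 in Lcn2-/-). It turned to -0.36 and -0.30 when arrays were scaled to their 75th percentile. That scaling moved the median of all genes to -0.16 in WT and -0.14 in Lcn2-/-. Under it Fn1 was called lower in WT at -0.52 (adjusted p = 0.0358).

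Tenascin C, a large adhesion-modulating glycoprotein of wounds, was above background on 0 of 16 arrays with either of its probes. Both probe sequences are shown, because what they can detect bounds this result. The first lies at chr4:63643728-63643787, and the second is split on the genome, since its 60 bases span 764 bases at chr4:63674248-63675011 (both mm9, minus strand).
Tnc, A_55_P2421597: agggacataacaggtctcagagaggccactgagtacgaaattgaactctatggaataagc
Tnc, A_52_P355169: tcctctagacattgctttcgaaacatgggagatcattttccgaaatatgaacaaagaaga
The first probe read between 2.89 and 4.41 and the second between 2.88 and 4.75, and no fold or test is given.

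The second question was whether loss of Lcn2 changed these genes. Under CCl4 the count of members called between Lcn2-/- and WT livers was 0 of 9, where 0.636% of all genes tested were called by limma. At an unadjusted p under 0.05 there were 2, Sparc and Fstl1, both lower in Lcn2-/-, where 13.7% of all genes passed the same threshold. Sparc differed by -0.60 (95% CI -1.07 to -0.14, unadjusted p = 0.0143, adjusted p = 0.252) and Fstl1 by -0.65 (95% CI -1.14 to -0.15, unadjusted p = 0.0137, adjusted p = 0.249). For Sparc, Lcn2-/- replicate 2 at 13.50 lay inside the WT range, which began at 13.35. The highest Fstl1 value in Lcn2-/- met the lowest in WT, both at 13.02. Among the arrays of slide 2 alone the differences were -0.52 for Sparc and -0.60 for Fstl1. The brighter Sparc probe gave -0.34 (95% CI -0.92 to 0.25). Postn differed by -0.30 (95% CI -0.63 to 0.03), and Ctgf by 0.11 (95% CI -0.64 to 0.86). The second Vcan probe was lower in Lcn2-/- and was not called (adjusted p = 0.216). No size is given for it, since it was well above background on 3 of the 4 Lcn2-/- CCl4 arrays. The brightest Vcan probe was 0.29 higher in Lcn2-/- (SE 0.192, adjusted p = 0.529). The genotypes overlapped on neither probe, in opposite directions, and on the brightest they were barely apart, with a WT maximum of 8.899 and a Lcn2-/- minimum of 8.906. Of all genes, 2.41% were without overlap and higher in Lcn2-/- and 3.26% lower.

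In control livers the count called between genotypes was also 0 of 9, against 0.53% of all genes. There were 3 genes at an unadjusted p under 0.05, each lower in Lcn2-/-, where 8.3% of all genes passed the same threshold. Cyr61 differed by -0.85 (95% CI -1.42 to -0.27, adjusted p = 0.268), and all 3 Lcn2-/- controls, at most 10.45, lay below all 4 WT controls, at least 10.58. With array weights, which let limma count noisier arrays less, it was called at -1.02 (adjusted p = 0.00865). That setting called 1270 of the 24357 genes tested in this comparison, against 129 without weights. Fstl1 differed by -0.66 (95% CI -1.22 to -0.10, adjusted p = 0.459), again without overlap, as 5.42% of all genes were in this direction, and by -0.40 to -0.85 over the alternatives. Postn differed by -0.44 (95% CI -0.81 to -0.07, adjusted p = 0.453), with 1 Lcn2-/- control, 10.05, just above the lowest WT control, 10.01. Ctgf went the other way, 0.69 higher in Lcn2-/- (95% CI -0.16 to 1.55, adjusted p = 0.763). All control arrays in this comparison lay on slide 1, but the intervals and p-values use the spread of all 16 arrays on both slides. Taken by replicate number, all 3 pairs of controls were lower in Lcn2-/- for Postn (-0.651 to -0.165), Sparc, Cyr61 and Fstl1. The pairs were also lower, but by little, for Fn1 (-0.122 to -0.037), Vtn (-0.084 to -0.014) and Vcan (-0.154 to -0.007). The unpaired Vcan difference was 0.008. Ecm1 was lower in 0 of 3 pairs and Ctgf in 1 of 3. The share of all genes lower in all 3 pairs was not counted. The labels do not state such pairs, and 0 members were called with the controls paired.

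**Figure D4:**
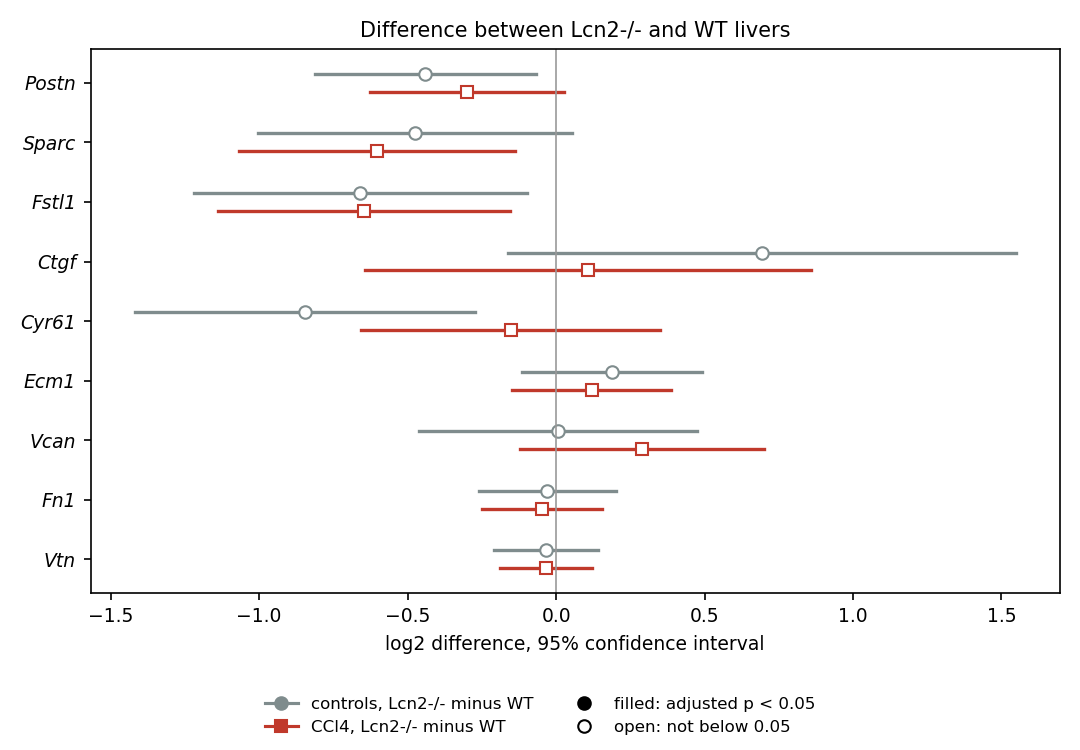
Log2 difference between Lcn2-/- and WT livers (horizontal axis) with 95% confidence intervals for the 9 tested genes (vertical axis), in controls (grey circles) and under CCl4 (red squares). Open symbols show that none had an adjusted p under 0.05, and the points of 6 genes (Postn, Sparc, Fstl1, Cyr61, Fn1 and Vtn) lie left of 0 in both conditions.

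The interaction was called for 0 of 9 genes, against 0.0534% of all genes (13 genes), and 0 of the 9 had an unadjusted p under 0.05, against 3.33% of all genes. For Postn, Sparc and Fstl1 it was 0.14 (95% CI -0.35 to 0.63), -0.13 (95% CI -0.83 to 0.57) and 0.01 (95% CI -0.73 to 0.76). These intervals are wide, and a p that missed the threshold does not show equal responses. The comparisons between genotypes use the same arrays as the responses above, and their signs are therefore not separate evidence.

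Variation among animals of 1 group was described by the correlation of each gene's deviations from its group means over the 16 arrays, with no test. Of the 36 pairs of genes, Sparc and Fstl1 went together most closely (Pearson r = 0.87). Fn1 with Vcan (r = 0.55) and Postn with Ctgf (r = 0.43) followed. Postn and Vcan (r = -0.71), Fn1 and Ctgf (r = -0.68) and Postn and Fn1 (r = -0.64) deviated in opposite directions. Ctgf and Cyr61 gave r = 0.16. The points share their libraries, so array quality enters every pair.

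**Figure D5:**
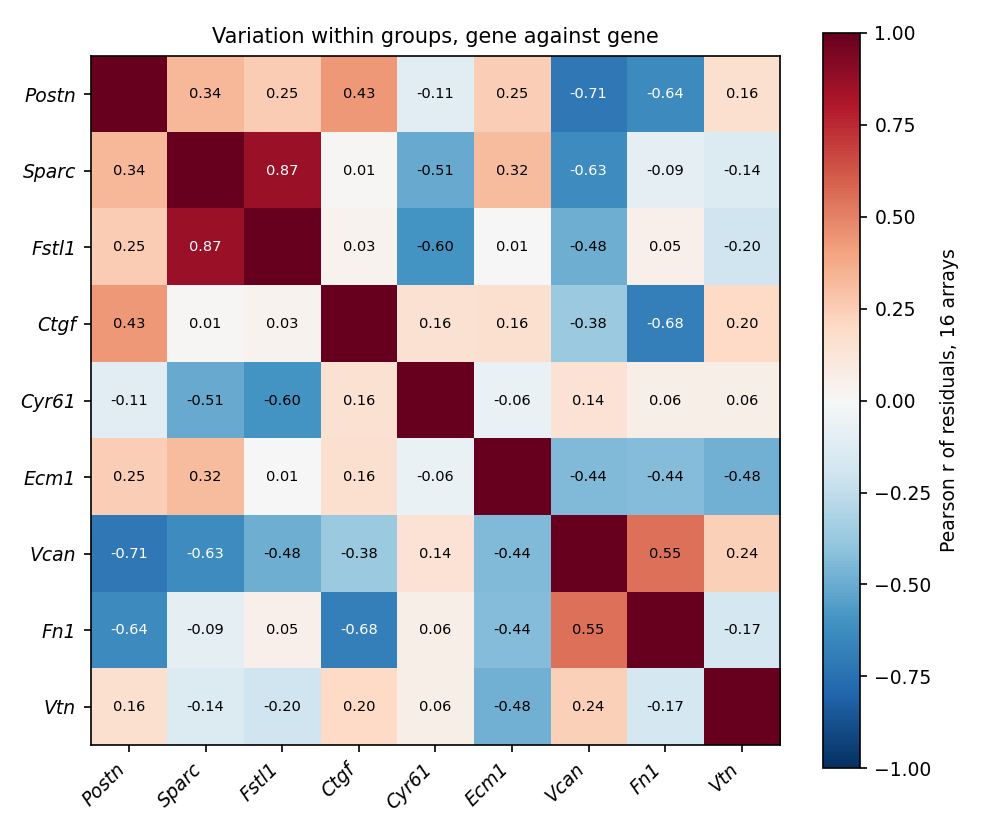
Pearson correlation (colour and number) between deviations from the group means over 16 arrays for each pair of the 9 tested genes, named on both axes. The pair of Sparc and Fstl1 at 0.87 is the highest, and Vcan, on its brightest probe, is negative with Postn and Sparc.

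Over 14763 other genes with a symbol, Tubb6 was among the closest in this measure to Sparc (r = 0.92), and the closest to Fstl1 were Timp1, an inhibitor of matrix metalloproteinases (r = 0.94), and Fkbp10, a collagen chaperone (r = 0.92). Closest to Postn were Shisa2 (r = 0.91) and Stap2 (r = 0.90), to Ctgf Grhl1 (r = 0.92) and Mmp7 (r = 0.86), and to Cyr61 Nifk (r = 0.85) and Oser1 (r = 0.81). Fn1 lay closest to Fras1 (r = 0.95) and Nr5a2 (r = 0.94), Vtn to Ifitm2 (r = 0.85) and Klhdc2 (r = 0.83), Ecm1 to Dnajc2 (r = 0.88) and Slmap (r = 0.84), and Vcan to Zhx3 (r = 0.97) and Cngb1 (r = 0.96). Of the Fstl1 pair, Fkbp10 was 1.63 higher after CCl4 in WT (adjusted p = 0.000512) and 1.73 higher in Lcn2-/- (adjusted p = 0.00145), and Timp1 differed by 1.56 (adjusted p = 0.0812) and 1.51 (adjusted p = 0.157). The highest values of so many correlations over 16 arrays are large by selection.

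Genes of the same families were set beside the members. Of 21 listed relatives, 12 were tested, and 6 were called higher and 1 lower in WT after CCl4, and 5 higher and 1 lower in Lcn2-/-. For this and the later lists, the shares over all genes were 8.01% called higher and 8.8% lower in WT. In Lcn2-/- livers they were 6.57% and 5.61%. Sparcl1, a relative of Sparc, had the largest change of the list, from 12.18 ± 0.389 (n = 4) to 15.56 ± 0.208 (n = 5) in WT and from 10.19 ± 0.376 (n = 3) to 14.08 ± 0.268 (n = 4) in Lcn2-/-. It was also the only one called between genotypes, with Lcn2-/- minus WT at -1.49 under CCl4 (adjusted p = 0.0018) and -1.99 in controls (adjusted p = 0.000363), with no overlap between genotypes in either condition. Its interaction was 0.51 (adjusted p = 1.0). Smoc2, a calcium-binding SPARC relative, rose by 2.27 in WT and 1.73 in Lcn2-/-, and Tnxb, a tenascin, by 2.01 and 1.71. Fstl3 rose by 1.19 in WT, and in Lcn2-/-, where no control array was above background, by at least 2.76-fold.

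Receptors of these proteins followed in part. Of 24 listed integrins, syndecans and other receptors, 21 were tested, and 6 were called higher and 0 lower in WT, and 6 higher and 1 lower (Sdc4, -0.75) in Lcn2-/-. Itga8, whose integrin marks hepatic stellate cells, rose by 2.58 (adjusted p = 1.43e-06) in WT and 2.50 (adjusted p = 5.63e-06) in Lcn2-/-. Itga11, a collagen receptor of myofibroblasts, rose by 2.02 and 1.72, Plaur, the urokinase receptor, by 1.64 and 2.01, and Anxa2 by 1.65 and 1.35. With slide as a block the Plaur difference was 0.86 in WT and 1.04 in Lcn2-/-, called in neither. Anxa2 (1.75 and 1.47) and Fstl3 (1.18 in WT) were also called in neither, and Smoc2 (2.18) and Itga11 (1.84) were not called in Lcn2-/-, though these differences were about as large as without the block, or larger. The vitronectin receptor chains Itgav (0.08 and 0.39), Itgb3 (-0.36 and -0.49) and Itgb5 (0.46 and 0.40) did not pass the test.

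Of 20 listed matrix partners, 18 were tested, and 7 were called higher in WT and 8 in Lcn2-/-, with 0 lower in both. Col6a1 rose by 2.71 in WT and 2.66 in Lcn2-/-, and Col6a2 by 2.69 and 2.63. Eln, the elastin gene, rose by 1.62 in WT. It was also called higher in Lcn2-/-, without a size, since it was above background on 2 of 3 controls there. Plat, the tissue plasminogen activator, was called higher in WT, without a size, since it was above background on 3 of 4 controls. It rose at least 12.4-fold in Lcn2-/-, where it was below background in controls. Of 16 listed targets and partners of YAP and SRF, all tested, 1 was called higher in each genotype, Tead1 (1.51 in WT, 1.50 in Lcn2-/-). In WT 1 was called lower, Amotl2 (-1.05, adjusted p = 0.029). Over all genes, 8.01% were called higher and 8.8% lower in WT, and 6.57% and 5.61% in Lcn2-/-. The median of this list was 0.002 in WT and 0.024 in Lcn2-/-, beside the Ctgf differences of 1.82 and 1.24. Apart from Sparcl1, no gene of these 4 lists was called between genotypes or in the interaction.

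Some markers of cell types were called after CCl4, and others were not. Of 7 stellate cell markers 6 were called higher in WT and 5 in Lcn2-/-, and 1, Ngfr, was called lower in WT. The mean log2 level of the list went from a range of 9.72 to 10.09 to 10.59 to 11.02 with CCl4 in WT and from 9.47 to 9.86 to 10.59 to 10.80 in Lcn2-/- livers. Of 6 portal fibroblast markers 4 were called higher in each genotype, with Mfap4 up by 2.93 and 2.90. The mean level of the portal fibroblast list was 8.68 to 8.90 in Lcn2-/- control against 9.13 to 9.84 in WT control livers. Under CCl4 the genotypes overlapped, at 9.99 to 10.72 in Lcn2-/- and 10.53 to 11.29 in WT. In controls the levels of every other marker list overlapped between genotypes. Of 5 mesothelial markers 3 were called higher in WT and 1, Wt1, in both. Of 7 hepatocyte markers 0 were called in either genotype, and their level stayed between 18.14 and 18.39 on all arrays. Smooth muscle, sinusoidal endothelial, macrophage and cholangiocyte lists each had 1 marker called higher in each genotype (Des, Lyve1, Cd68 and Spp1). Des is also on the stellate list and is counted there too. The other smooth muscle markers, Myh11, Cnn1 and Acta2, were called in neither genotype. In WT, 1 marker each of the sinusoidal (Stab2), macrophage (Clec4f), pancreas (Ctrb1) and adipose (Cfd) lists was called lower, and the pancreas and adipose lists had 0 called higher. Between genotypes 0 markers were called. The part of cell composition in the changes of Postn, Sparc, Fstl1 and Ctgf was not tested.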

How the data were processed

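RNA from 16 livers was measured, 1 Agilent 1-colour array per animal, and groups and replicate numbers came from the sample titles. The authors labelled RNA with Cy3 and deposited 1 Feature Extraction file per array (version 10.7.3.1 in the file headers), whose processed signal is a background-subtracted intensity not normalized between arrays. They also deposited a log2 table of the same arrays, used as an alternative. Set against the scanner files it was log2 of median signal minus median background, quantile normalized, for 99.86% of values within 0.05. Spot flags in the deposited files are given as other values, 0 or 1.

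The log2 processed signal of 59305 gene spots was quantile normalized, as the study's methods name, spots marked as outliers were left out, and spots of a probe were averaged. The 121 probes without an unmarked spot on some array were dropped. The brightest probe of each symbol was tested if it exceeded background on 3 or more arrays (24357 genes). limma 3.58.1 in R 4.3.3 fitted 1 model over the 4 groups (lmFit, contrasts.fit, eBayes), tested on simulated data, with Benjamini-Hochberg adjustment over all genes within each of 5 contrasts. Gene names were updated through a RefSeq table of GRCm38.p6, which matched 49.8% of gene spots. Probe positions are on mm9, as in the files, and exon or untranslated region was not analysed here.

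All members were named, with up to 4 genes of each reference list that were called in both genotypes with the largest mean absolute change, any called between genotypes, and the 2 closest genes to each member in within-group correlation. A gene that this rule names is not reported here. Other genes named from the lists and markers were chosen after their values were seen. Members and lists were chosen with earlier results of these data known. The number of arrays limits the precision. Depth is signal over background, with 75th percentiles of processed signal from 842.3 to 2066.7. Alternatives were the scaling, background correction, deposited table, filters, probe averaging, slide or replicate block, array weights, fewer groups and each array left out. A further 3 were added after the data were seen, leaving out both control arrays nearest the CCl4 arrays, keeping marked spots and pairing the controls by number. The labels do not say that replicate numbers pair animals. Deviations from the group means correlated above 0.1 in all 3 same-numbered pairs of controls (r 0.23 to 0.55), and the controls were therefore paired in an alternative. No other pair of groups had all its correlations above 0.1. Protein sequences were not analysed here.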

Additional observations from a re-analysis of the deposited data

Results flagged for a closer look

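Among the 27 combinations of gene and group with 4 or 5 arrays, Postn in WT CCl4 livers had 1 array apart from the rest. Replicate 3 read 11.77 against 12.11 for the nearest of the other 4, a gap of 0.744 of the group's range where Dixon's limit for 5 samples is 0.71. Chance alone passes this limit in about 5% of groups. Replicate 3 still lay above all 7 control arrays, whose highest value was 10.58.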

How the results depend on the processing

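The count of members called was 6 in the WT and 4 in the Lcn2-/- response and became 3 and 2 with slide as a block, where Postn and Fstl1 were called in both genotypes and Sparc in WT. Leaving out 1 array gave 5 to 7 and 4 to 5. Leaving out both control arrays nearest the CCl4 arrays gave 7 (Cyr61 added) and 5 (Vcan added). Averaging probes reversed Vcan to 1.222 in WT and 1.195 in Lcn2-/-, values that include control arrays on which the second probe was not detected. Between genotypes and in the interaction the count was 0 throughout, except 1 (Cyr61) in controls with array weights. Counts over all genes moved more. The WT response had 4094 genes, 1302 with slide as a block, 7054 with array weights and 2498 to 5110 without 1 array. The Lcn2-/- response had 2968, 425 with slide as a block, 6954 with array weights, 1757 with only its own groups and 1683 to 3200 without 1 array. Under CCl4 the 155 genes between genotypes became 323 with array weights, 93 with only those groups, 255 without both control arrays and 76 to 187 without 1 array. The 129 in controls became 216 without a filter, 58 with probes above background on all arrays, 1270 with array weights and 94 to 143 without 1 array. The interaction had 13, then 7 with normexp background correction, 3 with the deposited table, 1 with probes above background on all arrays and 8 to 15 without 1 array. The causes of these shifts were not tested.

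With the replicate number as a block, the genotype count under CCl4 was 92 and the interaction count 6, and no member's call changed. The genotype count in controls went from 129 to 92 with that block and to 127 with only the controls paired by number, and 0 members were called in either. The protein comparison planned for these genes was not run. Tnc and the second Vcan probe are limited by signal over background.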
